A study of Mus musculus with 12 samples.

Results

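Ribosomal protein genes were followed across 4 T cell fractions of the mouse Peyer's patch, the lymphoid tissue of the small intestine wall. Members were taken by gene symbol: Rpl or Rps followed by a digit, together with Rpsa, leaving out pseudogenes (29 probes) and the S6 kinases (6 probes). Of 70 such probes, 69 were above background on every array of 1 fraction or more, and 1 probe was kept for each symbol, which gave 67 genes of the 16942 tested. They comprise 40 large-subunit (Rpl) and 27 small-subunit (Rps) symbols. The symbol rule also takes in Rps19bp1, which encodes a protein that binds Rps19, and Rps4l, which RefSeq annotates as a transcribed pseudogene. Rpl3l, a paralog known from striated muscle, was the single member symbol not detected on all 3 arrays of any fraction. Rplp0, Rplp1, Rplp2, Rps27a and Rack1 were not analysed here.

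Cells came from C57BL/6 mice of both sexes aged 10 weeks, with 3 to 5 mice pooled per collection, and no animal carried a stated transgene or treatment. Sorting on the surface T cell receptor and coreceptors gave γδ cells (γδTCR+ TCRβ-) and 3 fractions of TCRβ+ γδTCR- cells: DN (CD4- CD8β-), CD4 and CD8 (CD8β+). The purity after sorting was stated as more than 98%. Each fraction was measured on 3 arrays of a 1-colour Toray 3D-Gene chip, and the labels describe 3 repeats of the RNA collection without tying an array to its mice. The p-values therefore measure the spread between these 12 arrays, part of which may be technical.

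Each ribosome is built from a small subunit, which decodes the messenger RNA, and a large subunit, which forms peptide bonds, and each subunit holds many proteins on a core of ribosomal RNA. The messenger RNAs of most of these proteins start with a run of pyrimidines, the terminal oligopyrimidine (TOP) tract, through which mTORC1 and its effector Larp1 control their translation and stability together. T cells are known to make more ribosomes when they are activated and grow. Several members also have roles of their own: Rpl5 and Rpl11 bind Mdm2 and thereby stabilise p53, Rpl22 is required for the development of αβ T cells in mice, and Rps6 is the classical target of the S6 kinases.

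The sequence around the annotated start is shown for 4 members that were lower in DN and for 4 of those called between the array series, because the TOP tract is the element these genes are known to share. Each line runs from 20 bases before the start to the first 20 bases of the transcript, 5′ to 3′ on the strand of the gene, from RefSeq on GRCm38.p6, with the longest run of C and T in capitals, the first of them where several are equally long (2 in Rpl39 and Rpl22, 3 in Rps7).
Rpl39 (chrX:37085203-37085242, minus strand): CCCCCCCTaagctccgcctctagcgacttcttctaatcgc
Rpl31 (chr1:39367831-39367870, plus strand): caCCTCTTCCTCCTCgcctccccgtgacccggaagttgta
Rps26 (chr10:128626487-128626526, minus strand): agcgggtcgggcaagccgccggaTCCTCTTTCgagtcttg
Rpl22 (chr4:152325706-152325745, plus strand): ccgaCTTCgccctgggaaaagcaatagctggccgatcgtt
Rpl7a (chr2:26910787-26910826, plus strand): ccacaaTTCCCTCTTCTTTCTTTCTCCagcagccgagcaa
Rps3 (chr7:99483690-99483729, minus strand): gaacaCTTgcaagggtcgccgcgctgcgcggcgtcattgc
Rps15a (chr7:118116128-118116167, minus strand): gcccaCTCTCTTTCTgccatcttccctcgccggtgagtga
Rps7 (chr12:28635934-28635973, minus strand): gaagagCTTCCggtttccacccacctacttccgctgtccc

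The longest run was 21 bases in Rpl7a, 13 in Rpl31, 10 in Rps15a, 9 in Rps26, 8 in Rpl39, 5 in Rps7, 4 in Rpl22 and 3 in Rps3. The marked run began at position -14 in Rpl7a, where alone it crossed the start, and at position 4 of the transcript in Rps26. In the other genes shown it lay wholly before the annotated start. A TOP tract begins with the transcript, so the capitals there do not mark such a tract. Only the longest run is in capitals, and a shorter run at the start stays in small letters. The Rps15a transcript, for one, opens with cttccctc at its annotated start. Of the 67 members, 53 had an entry in the promoter table. A run of at least 8 pyrimidines on the coding strand lay between 20 bases before and 30 bases after the start in 26 of them (49.1%), against 18.8% of all 27025 promoters. On the opposite strand such a run lay in 7.55% of the members and 21.4% of all promoters. The letters CCGGAAGT, a core bound by Ets-family factors, were found on either strand of the 300-base window in 11 members (20.8%) and in 4% of all promoters. A gene with several annotated starts was represented by the entry listed first, and a match describes letters only.

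Levels are given as log2 of the background-corrected, quantile-normalised spot signal, and a difference of 1 is a doubling. The dim end is compressed by the offset used in that correction, and a level belongs to its probe, so levels of different genes were not compared. Over the arrays, blank spots averaged 58.6 to 62.2 on the linear scale, and the median spot read 70.7 to 77.9. No member spot was at the scanner limit, and 66 of the 67 members were detected on all 12 arrays. Their mean log2 signal was under 7 for 8 members, 7 to 13 for 30 and over 13 for 29. The members spanned 18 chromosomes, with 4 on X.

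The library labelled CD8 1 and the library labelled γδ 1 go against their labels. Cd8b1, the coreceptor chain that defines the CD8 gate, read 8.57 in CD8 1, 13.80 in CD8 2, 13.62 in CD8 3 and 13.91 in γδ 1, against 8.29 and 8.14 in the other γδ libraries. The scavenger receptor gene Cd163l1, a mark of γδ cells, read 8.23 in CD8 1 and 6.11 in γδ 1, against 8.57 and 8.48 in γδ 2 and γδ 3. Each result is therefore given for all 12 libraries as labelled and without these 2. Cd4 read 8.76 to 9.97 in CD4 and 6.00 to 6.16 elsewhere, and Cd8a, which was not part of the gate, read 14.22 to 14.42 in DN. Replicate 1 of every fraction comes from one series of arrays by its array name and replicates 2 and 3 from another. Without the 2 libraries, CD8 and γδ have arrays of the second series alone, so fits that add a block for the series, or for the replicate number, are given beside each such count of members, and the series block beside the lists of other genes.

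**Figure D1:**
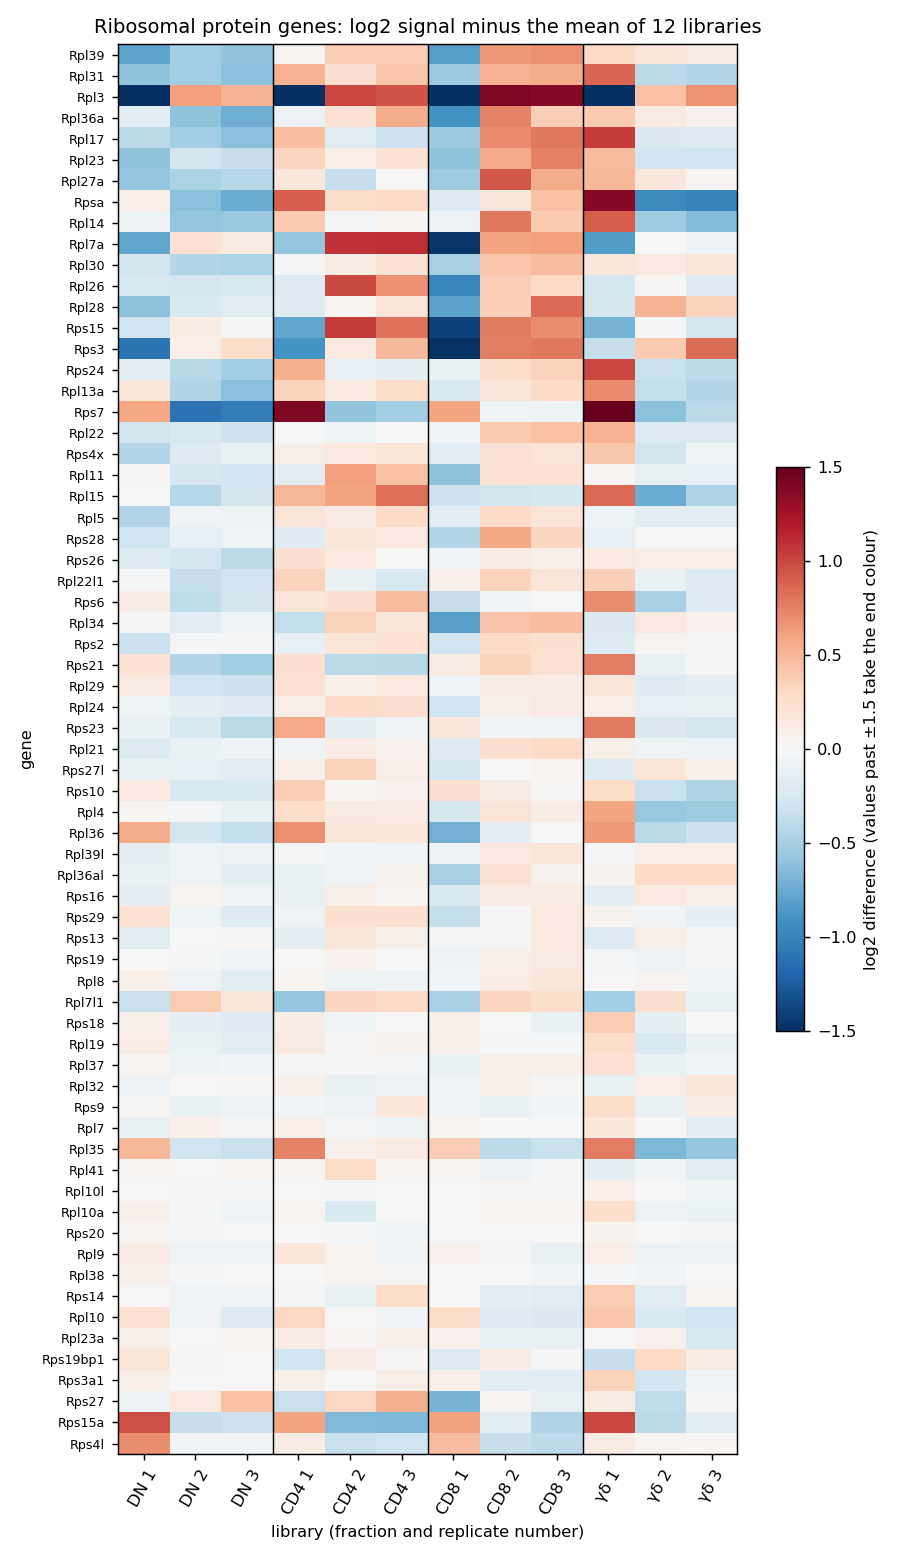
Each row is a ribosomal protein gene and each column 1 of the 12 libraries. Colour gives the log2 signal minus the mean of that gene over the 12 libraries, red above and blue below, with values past 1.5 in the end colour. Rows run from the lowest DN level relative to CD4 and CD8 (without CD8 1) at the top to the highest at the bottom. DN and CD8 1 are blue for most genes in the upper rows, and Rpl3, Rps3 and Rps7 split by replicate 1.

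The mean over the 67 members was lowest in CD8 1, at 11.02, and read 11.19, 11.12 and 11.09 in DN. It was 11.35, 11.40 and 11.42 in CD4, 11.48 and 11.47 in CD8 2 and CD8 3, 11.50 in γδ 1, and 11.18 in each of the others of γδ. The DN libraries thus lay below all CD4 libraries and both other CD8 libraries, and next to γδ 2 and γδ 3. The mean over all genes was 6.80 to 6.81 in every library, as quantile normalisation sets it. In such bulk fractions fewer cells of a type and less RNA per cell cannot be told apart.

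The members varied unequally over the libraries. The range of the 12 log2 values was 0.10 for Rps20, 0.11 for Rpl38, 0.14 for Rpl10l and 0.21 for Rps19, all probes close to the dim end. It was 2.57 for Rpl7a, 2.94 for Rps7 and 3.50 for Rpl3. Replicates 2 and 3 of a fraction differed with an SD over the 67 members of 0.09 in DN, 0.14 in CD4, 0.14 in CD8 and 0.15 in γδ. Replicate 1 differed from their mean with an SD of 0.54, 0.65, 0.76 and 0.73 in the same order. In DN and CD4 most of the spread within a fraction thus lay between the array series. In CD8 and γδ, replicate 1 also goes against its label, so series and label cannot be told apart there.

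Rpl39, a small protein of the large subunit that lines the exit tunnel of the nascent chain, was low in DN. This gene was singled out with earlier results of these data known, so its values are a description and not independent evidence. Its log2 signal was 10.59, 10.85 and 10.78 in DN, 11.41, 11.76 and 11.76 in CD4, and 11.67, 11.55 and 11.52 in γδ. In CD8 it was 10.55 in CD8 1, 12.03 in CD8 2 and 12.07 in CD8 3. As labelled, every DN value lay below every CD4 and γδ value. The single other library at the DN level was CD8 1, one of the 2 that go against their labels. Its Cd8b1 (8.57) and Cd163l1 (8.23) lay near those of γδ 2 (8.29 and 8.57) and γδ 3 (8.14 and 8.48). The separation from γδ therefore holds by label, and whether CD8 1 holds γδ cells was not tested. In order of their means without the 2 libraries the fractions ran from CD8 (12.05) over CD4 (11.65) and γδ (11.53) to DN (10.74). CD4 and γδ overlapped. CD8 lay above both, though neither difference passed (limma adjusted p = 0.12 and 0.064).

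As labelled, the difference DN minus CD4 was -0.91 ± 0.35 (SE) in the limma fit, DN minus CD8 -0.81 ± 0.35 and DN minus γδ -0.84 ± 0.35. The adjusted p-values were 0.268, 0.556 and 1.00, so none passed. Without CD8 1 and γδ 1 the difference from CD4 was -0.91 ± 0.11 (adjusted p = 0.00187 by limma), from CD8 -1.31 ± 0.12 (adjusted p = 0.000572) and from γδ -0.79 ± 0.12 (adjusted p = 0.035). These are levels 1.87, 2.48 and 1.73 times lower in DN. A block for the array series, added to this, gave -0.91 ± 0.03, -1.21 ± 0.04 and -0.70 ± 0.04, with limma adjusted p-values of 5.96e-06, 5.66e-06 and 0.000576. The call against γδ was lost on the deposited value table (-0.76, limma adjusted p = 0.308) and held in 2 of the 10 fits that left out a further library.

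Rpl39l, the paralog of Rpl39 best known from male germ cells, has a dim probe here. It read 6.27, 6.35 and 6.33 in DN, 6.39, 6.38 and 6.36 in CD4, 6.34, 6.57 and 6.59 in CD8, and 6.40, 6.52 and 6.52 in γδ. As labelled no difference passed. Without CD8 1 and γδ 1, DN was lower than CD8 by -0.26 ± 0.03 (limma adjusted p = 0.00161) and than γδ by -0.21 ± 0.03 (limma adjusted p = 0.0316), while DN minus CD4 was -0.06 ± 0.03 and did not pass.

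**Figure D2:**
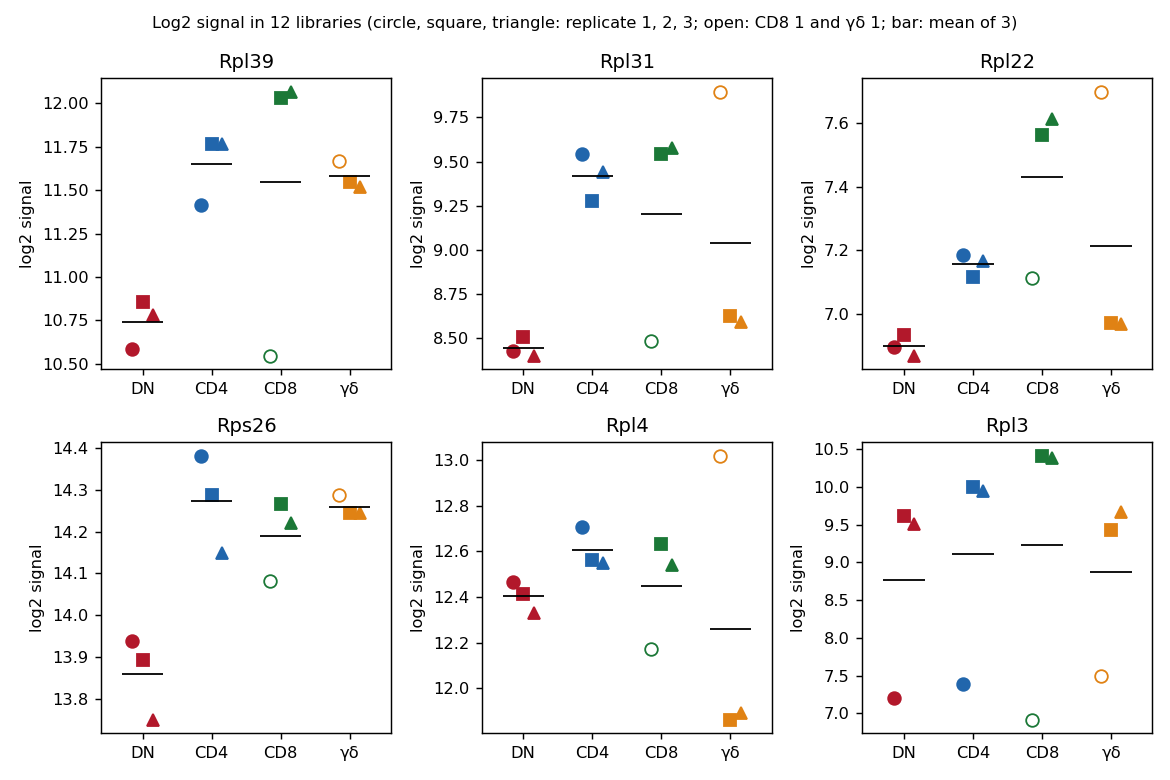
Log2 signal of 6 members in each library by fraction, with circles for replicate 1, squares for replicate 2 and triangles for replicate 3. Open circles are the libraries labelled CD8 1 and γδ 1, and the bar is the mean of the 3 libraries of a fraction. Rpl39, Rpl31 and Rps26 are low in DN, the open circle of CD8 sits near the DN level for Rpl39 and Rpl31, and every replicate 1 value of Rpl3 lies between 6.92 and 7.50, under those of replicates 2 and 3.

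Against CD4, the helper and follicular helper compartment of the patch, most ribosomal protein genes had a difference below 0 in DN, and few of them passed. As labelled, 1 of the 67 members was called at an adjusted p under 0.05, Rps26, a protein of the mRNA exit channel of the small subunit. This share of 1.49% stands beside 1.45% of all genes called lower and 0.832% higher. At an unadjusted p under 0.05, 10 members were lower. Counts at an unadjusted p, here and below, have no share of all genes beside them. Rps26 read 13.94, 13.89 and 13.75 in DN and 14.38, 14.29 and 14.15 in CD4, with no overlap and a difference of -0.41 ± 0.07 (adjusted p = 0.0219 by limma). The call was lost without DN 2, DN 3, CD4 1 or CD4 2. The members' differences had a median of -0.20 with 58 of 67 below 0, while the median of all genes was -0.01. In 22 members all 3 DN values lay below all 3 CD4 values, and in 0 members above. The same held for 13.9% and 10.8% of all genes, against 32.8% and 0% of the members, and 2.28% of all genes were called in either direction. Rpl31 (-0.98), Rpsa (-0.91) and Rpl39 (-0.91) had the lowest differences as labelled. Rps4l (0.38), Rps15a (0.35) and Rps19bp1 (0.12) had the highest, and none of these 6 passed.

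The same DN and CD4 libraries enter the fit without CD8 1 and γδ 1, which changes the shared estimate of the spread and leaves the differences as they were. In it 10 members were lower and 0 higher, beside 5.52% of all genes lower and 5.08% higher (10.6% in either direction). They were Rpl31 (-0.98 ± 0.07), Rpl39, Rpl15 (-0.87 ± 0.13), Rpl23 (-0.62 ± 0.10), Rpl30 (-0.50 ± 0.07), Rps26, Rps4x (-0.39 ± 0.09), Rpl24 (-0.34 ± 0.06), Rps27l (-0.30 ± 0.07) and Rpl22 (-0.26 ± 0.03). Rpl31, which sits at the rim of the exit tunnel, read 8.43, 8.50 and 8.40 in DN and 9.54, 9.28 and 9.44 in CD4. Rpl15 read 8.68, 8.26 and 8.41 in DN and 9.18, 9.28 and 9.51 in CD4. Rpl22, the member required for αβ T cell development, read 6.90, 6.94 and 6.87 in DN and 7.19, 7.12 and 7.17 in CD4. All 3 pairs of fractions were apart. The Rpl22 probe is listed under a non-coding RefSeq transcript of the gene, and whether it reads the coding messenger was not tested. Rps27l, a p53-inducible paralog of Rps27, and Rps4x, the X-linked copy of the small-subunit protein, moved the same way. A block for the array series gave 29 members lower and 2 higher (Rps15a and Rps4l), beside 14% of all genes lower and 11.3% higher (25.4% in either direction). A block for the replicate number gave 26 and 2, beside 12.5% and 10.3% (22.8%).

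CD8 cells of the patch gave a like comparison once CD8 1 was set aside. As labelled 0 of 67 members were called in limma, beside 0.0177% of all genes called. At an unadjusted p under 0.05, without a share of all genes, 8 members were lower. The lowest differences were those of Rpl17 (-0.84), Rpl27a (-0.81) and Rpl39 (-0.81), and the highest those of Rps27 (0.43), Rps4l (0.30) and Rpl36 (0.26). The median was -0.10 over the members, with 48 of 67 below 0, and -0.01 over all genes. Without CD8 1 and γδ 1, 16 members were lower and 0 higher, beside 6.95% of all genes lower and 5.98% higher (12.9% in either direction), and the median of the members was -0.22. After Rpl39, the lowest were Rpl17 (-1.27 ± 0.21), Rpl27a (-1.24 ± 0.16), Rpl31 (-1.12 ± 0.07), Rpl23 (-1.07 ± 0.11) and Rpl36a (-1.07 ± 0.23). Those nearest to 0 were Rps28 (-0.61), Rps4x (-0.48), Rpl21 (-0.39), Rps26 (-0.38), Rpl39l (-0.26) and Rpl36al (-0.24), and Rpl22 was at -0.69 ± 0.03.

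Rpl17 read 9.51, 9.37 and 9.27 in DN and 10.61 and 10.69 in CD8 2 and CD8 3. Rpl27a read 9.39, 9.50 and 9.55 in DN and 10.90 and 10.53 in the same CD8 libraries. The corresponding values in CD8 1 were 9.36 and 9.44, within the DN range. With a series block 32 members were lower and 1 higher (Rps4l), beside 14.1% of all genes lower and 12.4% higher (26.5% in either direction). The replicate block gave 30 and 1, beside 12.7% and 11.5% (24.2%). In the fit without a block Rpl3 had the lowest difference of all members, -1.62, without being called (limma adjusted p = 0.347). That difference mixes the array series, since DN 1 has no CD8 library of its series in this fit. In replicates 2 and 3 alone Rpl3 was at -0.84, and Rpl17 lay lower at -1.33. The DN values of Rpl3 were 7.21, 9.61 and 9.50 and those of CD8 2 and CD8 3 were 10.41 and 10.38. Both comparisons use the DN libraries, so they are not independent.

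Between DN and γδ the shift of the members as a group was smaller without the 2 libraries that go against their labels. As labelled the median of the members was -0.095, with 50 below 0 and 17 above, and that of all genes -0.004. As labelled 0 members were called in limma, beside 0.0118% of all genes called. At an unadjusted p under 0.05, without a share of all genes, 5 members were lower. The lowest differences were Rpl39 (-0.84), Rps7 (-0.80) and Rpl27a (-0.73), and the highest Rps27 (0.26), Rps15 (0.25) and Rpl7l1 (0.20). Without the 2 libraries 4 members were lower and 1 higher, beside 0.596% of all genes lower and 0.372% higher (0.968% in either direction). Leaving out DN 2, γδ 2 or γδ 3 as well gave 0. The lower members were Rpl39, Rpl30 (-0.56 ± 0.08), Rpl36al (-0.40 ± 0.06) and Rpl39l. Rpl4, a protein with an extension into the exit tunnel, was the higher one, at 12.46, 12.41 and 12.33 in DN against 11.86 and 11.89 in γδ 2 and γδ 3, a difference of 0.53 ± 0.06 (limma adjusted p = 0.0143). The median of the members without the 2 libraries was -0.02, with 36 below 0 and 31 above, and that of all genes 0.00. With a series block 7 were lower and 2 higher (Rpl35 and Rpl4), beside 3.22% of all genes lower and 3.04% higher (6.26% in either direction). The replicate block gave 7 and 2 too, beside 2.48% and 2.34% (4.83%).

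The direction of all 31 calls of the 3 DN comparisons without CD8 1 and γδ 1 was the same under median scaling and on the deposited value table. The size of the shift over the members was not. The median DN minus CD4 was -0.20 after quantile normalisation, -0.45 with median scaling and -0.45 on the value table, and DN minus CD8 without the 2 libraries was -0.22, -0.58 and -0.55. On the value table the median of all genes itself lay at 0.11 in the latter comparison and at 0.20 in DN minus γδ, where that of the members was 0.05. Relative to all genes the members were lower in DN in each of these.

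Some lists of markers of other cells differed between the same fractions, and others overlapped. The B cell list, of which 11 of 12 genes were measured, had a mean log2 level of 8.47 to 9.02 in DN, 6.34 to 6.66 in CD4, 6.41 and 6.44 in CD8 2 and CD8 3, and 7.98 in CD8 1. In γδ it was 6.68 in the first library, 8.60 in the second and 8.64 in the third. With those 2 libraries left out, DN had 10 of its 11 genes higher compared with CD4, 9 compared with CD8 and 0 compared with γδ (11, 10 and 1 with a series block), and 10 or 11 of the 11 were detected in every library. Of all genes 5.08%, 5.98% and 0.372% were higher in the same order (11.3%, 12.4% and 3.04% with a series block). The intestinal epithelium list (12 of 12 measured) read 6.79 to 6.96 in DN, 6.33 to 6.36 in CD4 and 6.35 and 6.33 in CD8 2 and CD8 3. It read 6.59 and 6.58 in γδ 2 and γδ 3. The list of naive and recirculating T cells (5 of 7 measured) read 6.81 to 6.96 in DN and 7.58 to 8.02 in CD4. It read 8.34 and 8.46 in CD8 2 and CD8 3, and 6.98 and 6.94 in γδ 2 and γδ 3. The macrophage and dendritic list (6 of 8) read 7.03 to 7.15 in DN, 6.60 to 6.71 in CD4, and 6.97 and 6.98 in γδ 2 and γδ 3. The plasma cell list (5 of 6) read 6.94 to 7.01 in DN and 6.61 to 6.96 in CD4, which overlapped. It read 7.01 in both γδ 2 and γδ 3. The T cell list (8 of 9) read 9.18 to 9.28 in DN, 9.21 to 9.55 in CD4 and 10.41 and 10.37 in CD8 2 and CD8 3. In γδ 2 and γδ 3 it read 9.66 and 9.58. This list includes Cd4 and Cd8b1, whose proteins defined the gates. Cd8b1 read 6.26 to 6.29 in DN and 13.80 and 13.62 in CD8 2 and CD8 3, so the sorting itself set part of this gap. The respiratory chain list (12 of 13), kept as a sign of RNA quality, read 10.17 to 10.48 in DN and 10.32 to 10.56 in CD4. The part of these in the ribosomal protein differences was not tested.

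**Figure D3:**
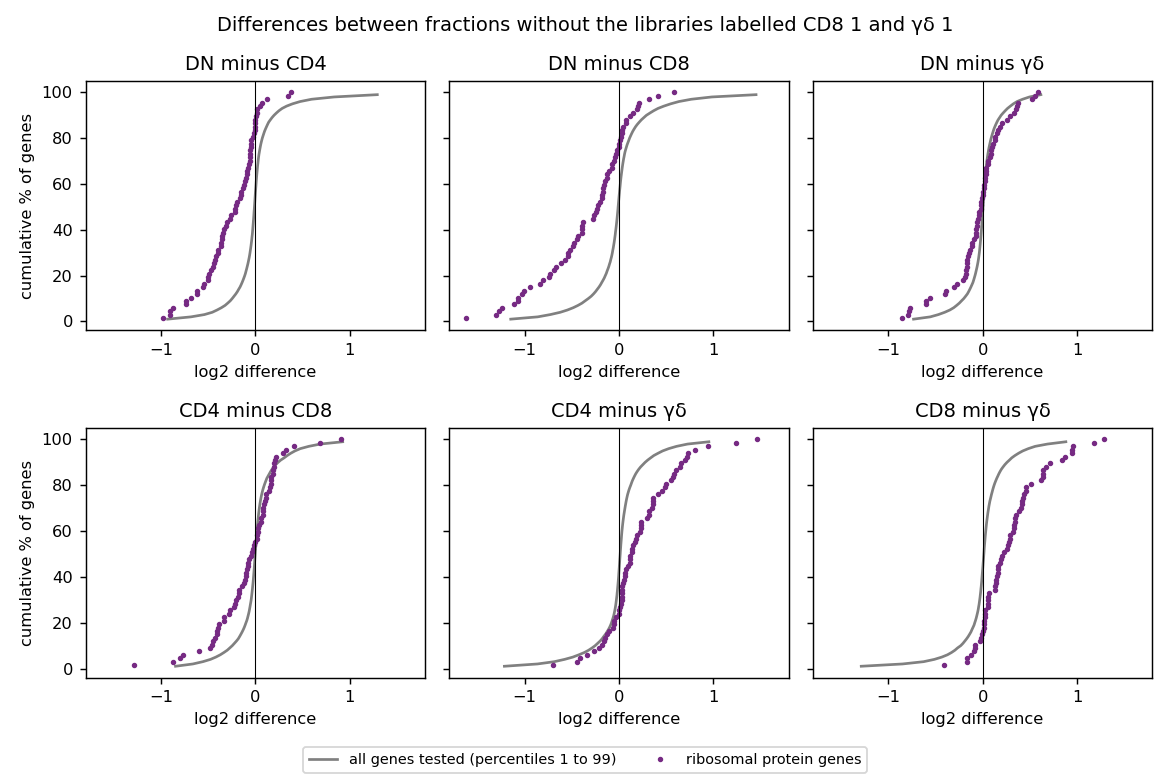
Cumulative share of genes (vertical axis, percent) at or below a log2 difference (horizontal axis) in the 6 comparisons, without the libraries labelled CD8 1 and γδ 1. Purple points are the 67 ribosomal protein genes and the grey line all 16942 genes from percentile 1 to 99. The purple points lie left of the grey line in DN minus CD4 (58 of 67 below 0) and DN minus CD8 (51 of 67), near it in DN minus γδ (36 of 67), and right of it in CD4 minus γδ and CD8 minus γδ (52 and 57 of 67 above 0).

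Among the other fractions fewer than 10 members passed in each comparison without the 2 libraries, and more once a block was added. CD4 and CD8 differed in no member as labelled in limma, beside 1.07% of all genes called. At an unadjusted p under 0.05 there was 1 member. Rpl15 (0.92), Rpl7a (0.62) and Rpl36 (0.62) had the highest differences CD4 minus CD8, and Rps21 (-0.43), Rpl27a (-0.38) and Rpl17 (-0.33) the lowest. Without the 2 libraries Rpl15 was higher in CD4 by 0.90 ± 0.15, and Rpl27a (-0.80 ± 0.16), Rpl22 (-0.43 ± 0.03) and Rpl39l (-0.20 ± 0.03) were lower, beside 2.8% of all genes higher and 2.59% lower (5.39% in either direction). Rpl15 read 9.18 to 9.51 in CD4, 8.41 and 8.43 in CD8 2 and CD8 3, and 8.26 to 8.68 in DN. With a series block 3 members were higher and 16 lower, beside 8.81% of all genes higher and 7.94% lower (16.8% in either direction). The replicate block gave 3 and 13, beside 7.63% and 6.71% (14.3%).

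Against γδ, 0 members were called as labelled in CD4 in limma, beside 1.14% of all genes (0.897% higher and 0.242% lower). In CD8 it was 0 members, beside 0% of all genes. At an unadjusted p under 0.05 there were 2 members for CD4 and 0 for CD8. The highest differences CD4 minus γδ were those of Rpl7a (0.84), Rpl15 (0.76) and Rpsa (0.68), and the lowest those of Rps21 (-0.40), Rps15a (-0.39) and Rps3 (-0.38). For CD8 minus γδ they were Rpl14 (0.46), Rpl3 (0.37) and Rps15 (0.35) against Rpl36al (-0.30), Rps3 (-0.27) and Rpl36 (-0.26). After leaving out the 2 libraries, 7 members were higher in CD4 than in γδ and 2 lower, beside 4.37% of all genes higher and 4.62% lower (9% in either direction). Rpsa, a small-subunit protein also known as a laminin receptor, was at 10.13, 9.50 and 9.52 in CD4 and 8.27 and 8.23 in γδ 2 and γδ 3, a difference of 1.46 ± 0.29 (limma adjusted p = 0.0208). Rpl15 (1.24 ± 0.15), Rpl31 (0.81 ± 0.07), Rpl4 (0.73 ± 0.06), Rpl23 (0.50 ± 0.11), Rpl24 (0.32 ± 0.06) and Rpl22 (0.19 ± 0.03) were higher too. Rpl36al (-0.34 ± 0.06) and Rpl39l (-0.15 ± 0.03) were lower, the former not on the value table (0.03).

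In CD8 2 and CD8 3, 7 members were higher than in γδ 2 and γδ 3 and 0 lower, beside 3.61% of all genes higher and 3.77% lower (7.38% in either direction). They were Rpl14 (1.18 ± 0.22), Rpl17 (0.96 ± 0.23), Rpl23 (0.95 ± 0.12), Rpl31 (0.95 ± 0.08), Rpl4 (0.71 ± 0.07), Rpl22 (0.62 ± 0.04) and Rpl21 (0.34 ± 0.06). Rpl14 read 9.03 and 8.62 in CD8 2 and CD8 3 and 7.70 and 7.58 in γδ 2 and γδ 3. A series block gave 21 members higher and 5 lower in CD4 against γδ, beside 12% and 10% of all genes (22% in either direction), and 25 higher and 1 lower in CD8 against γδ, beside 10.6% and 9.31% (19.9%). The replicate block gave 20 and 4 for CD4, beside 10.7% and 9.02% (19.8%), and 20 and 1 for CD8, beside 9.53% and 8.36% (17.9%).

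Across the 4 fractions at once, the F test called 0 members as labelled in limma, beside 1.18% of all genes called. At an unadjusted p under 0.05 there were 3 members. The smallest adjusted p of this F test, 0.0604, was that of Rps26. Rpl5, Rpl41, Rpl39l, Rpl24, Rpl15, Rpl30, Rpl39, Rpl27a and Rps27l followed. Without the 2 libraries it called 18 (14.7% of all genes), then 38 (34.8%) once a series block was added and 37 (30.9%) with a replicate block. Before any block the smallest p-values were those of Rpl22 (limma adjusted p = 6.48e-05), Rpl31, Rpl4, Rpl39, Rpl30, Rpl23, Rpl39l, Rpl15, Rpl27a and Rpl21. Rpl22 read 7.56 and 7.61 in CD8 2 and CD8 3, 7.12 to 7.19 in CD4, 6.87 to 6.94 in DN and 6.97 in both usable γδ libraries. These ranges did not overlap.

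Of the members with a role outside the ribosome, Rpl5 and Rpl11, the p53 regulators, did not pass between DN and CD4 without the 2 libraries, with differences of -0.40 (limma adjusted p = 0.057) and -0.47 (limma adjusted p = 0.20). Rps6 was at -0.49 and Rpl13a, a part of the interferon-gamma translational silencing complex in human cells, at -0.56, and neither passed. Rpl38, known from mice for its part in the translation of Hox mRNAs, read 5.86 to 5.97 in all 12 libraries, at the dim end. Of the paralogs, Rpl22l1 was at -0.22, Rpl7l1 at 0.07 and Rpl10l at 0.00 in the same comparison, and none passed. Rps28 has a second probe, whose difference DN minus CD8 was -0.35 without the 2 libraries against -0.61 for the probe used. Rpl9 has a second, dimmer probe, which differed in sign from the one used in DN minus CD8 (-0.29 against 0.07).

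Between the array series the members were called about as often as all genes were when all 12 libraries were used. In a fit of all 12 libraries with the fraction as a term, 12 members were higher and 13 lower in replicate 1 than in replicates 2 and 3, together 37.3% of the members, beside 40.7% of all genes (21.9% higher and 18.9% lower). Rpl3, at the peptidyl transferase centre of the large subunit, read 7.21 in DN 1 against 9.61 and 9.50, 7.38 in CD4 1 against 10.00 and 9.94, 6.92 in CD8 1 against 10.41 and 10.38, and 7.50 in γδ 1 against 9.43 and 9.67. Its difference was -2.62 ± 0.19 (limma adjusted p = 2.37e-05). Rps7 read 9.34, 10.16, 9.36 and 10.60 in replicate 1 of DN, CD4, CD8 and γδ, and 7.66 to 8.69 in the other 8 libraries, a difference of 1.66 ± 0.22 (limma adjusted p = 0.000495). Neither gene's classes overlapped.

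After Rpl3, the lowest of the 13 were Rps3 (-1.43 ± 0.19), Rpl7a (-1.38 ± 0.18), Rps15 (-1.19 ± 0.27), Rpl7l1 (-0.72 ± 0.08) and Rpl28 (-0.70 ± 0.17), and after Rps7 the highest of the 12 were Rps15a (1.18 ± 0.08), Rpl35 (0.89 ± 0.10), Rps23 (0.53 ± 0.12), Rps4l (0.52 ± 0.10) and Rps21 (0.51 ± 0.14). Rps3, a protein of the mRNA entry channel with a known role in DNA repair, read 11.97 to 13.11 in replicate 1 and 13.55 to 14.29 in replicates 2 and 3. Rps15a read 9.06 to 9.47 and 7.80 to 8.31. Large- and small-subunit genes stood on both sides, with 4 Rpl and 8 Rps symbols higher and 7 and 6 lower. Without CD8 1 and γδ 1, 21 members were higher and 12 lower, beside 21.2% and 17.2% of all genes (38.5% in either direction). Rps16, Rps2, Rps28 and Rps13, called lower as labelled, had values above 0 on the value table without passing there, where the median of all genes itself lay at 0.29 and that of the members at 0.44. The other 21 calls had the same sign under median scaling and on the value table. The second probe of Rpl9 differed between the series by 1.34, against 0.17 for the probe used. What differed between the series beside the array name, RNA and mice included, cannot be told apart.

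**Figure D4:**
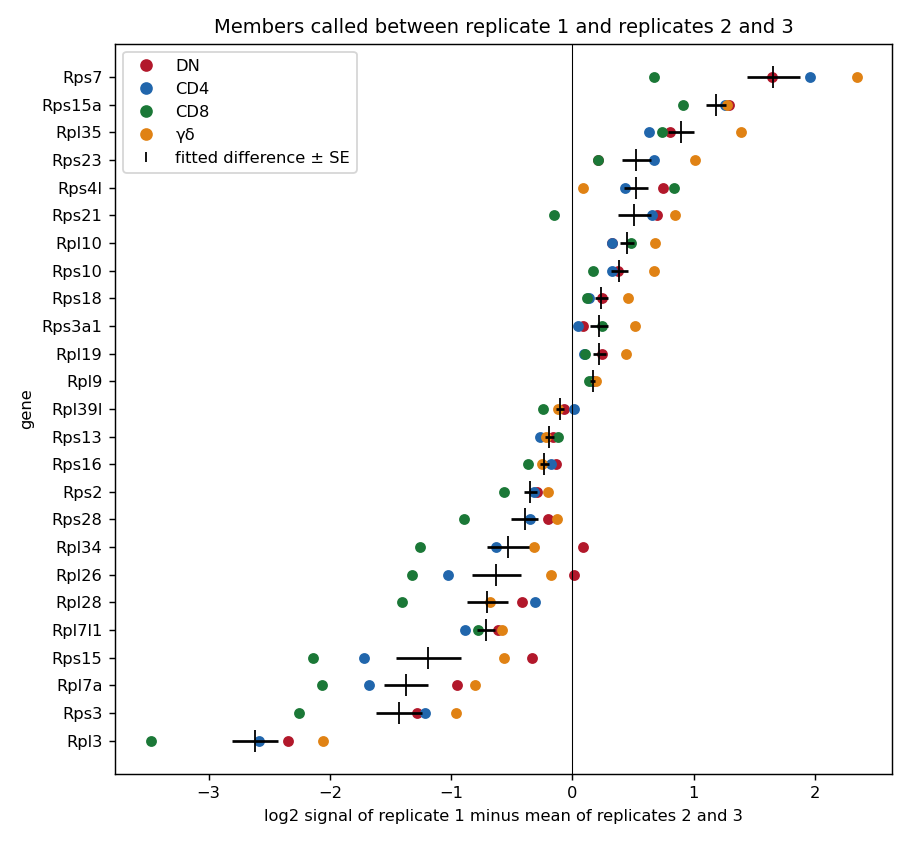
Log2 signal of replicate 1 minus the mean of replicates 2 and 3 (horizontal axis) for the 25 members called between them, one row per gene, with a dot per fraction and a bar for the fitted difference with its SE. Rpl3 lies lowest, between -3.48 and -2.06 in the 4 fractions, and Rps7 highest, between 0.67 and 2.35.

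The genes that act with the ribosomal proteins were read from lists chosen with earlier results known. As labelled no gene of the translation factor, ribosome biogenesis or mTORC1 and Myc lists was called in any comparison of fractions. Of 76 measured mitochondrial ribosomal proteins, which serve a separate ribosome, Mrps6 alone was called, lower in DN than in CD4 (-1.04, limma adjusted p = 0.00178) and higher in CD4 than in CD8 (1.03) and γδ (1.00). Fau, the precursor of the small-subunit protein eS30 and the only gene measured of those with other symbols, passed in no comparison of fractions (-0.09 between DN and CD4).

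Without CD8 1 and γδ 1, of the 20 translation factors with TOP mRNAs 0 were higher and 1 lower in DN than in CD4 (Eef1b2, -0.46), and 0 and 3 against CD8 (Hnrnpa1 -1.02, Eef1b2 -0.64 and Eif3m -0.30), with medians of -0.10 and -0.26. Over all genes the shares lower were 5.52% against CD4 and 6.95% against CD8, and those higher 5.08% and 5.98%. Against γδ none passed. A series block gave 2 higher and 7 lower against CD4 and 0 and 10 against CD8, where 14% and 14.1% of all genes were lower. Of 29 ribosome biogenesis genes 3 were lower in DN than in CD4 and 5 lower than in CD8, with 0 higher in both and medians of -0.08 and -0.41, beside the same shares of all genes. With a series block 1 was higher and 6 lower against CD4, beside 11.3% and 14% of all genes. Against CD8 it gave 1 and 16, beside 12.4% and 14.1%. Wdr12, a factor of large-subunit maturation, was at -0.49 in both, and Rrs1, which places the 5S particle, at -0.29 and -0.79. Nip7 (-0.26 against CD4) and Nhp2 (-1.15 against CD8), a protein of box H/ACA particles, were lower as well. In CD8 2 and CD8 3, 6 biogenesis genes were higher than in γδ 2 and γδ 3 and 0 lower, among them Wdr12 (0.50), Rrs1 (0.60) and Nle1 (0.86), and in CD4 3 were higher than in γδ and 0 lower, beside 3.61% and 4.37% of all genes higher. The series block gave 18 and 9 higher, with 0 lower in both, beside 10.6% and 12% of all genes higher.

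Of 13 genes that control TOP mRNAs or encode Myc family factors, 1 was higher and 1 lower in DN than in CD4, and 2 and 2 against CD8 (3 and 1, and 3 and 2, with a series block). Of all genes 5.08% were higher and 5.52% lower against CD4, and 5.98% and 6.95% against CD8. With the series block these shares were 11.3% and 14% against CD4, and 12.4% and 14.1% against CD8. Larp1, the repressor and stabiliser of TOP mRNAs, was lower in DN than in CD8 by -0.81 and lower in CD4 than in CD8 by -0.70. Eif4ebp2, a translation repressor held off by mTORC1, was lower in DN than in CD4 by -0.85. Rptor, the scaffold of mTORC1, was higher in DN than in CD4 (0.78) and CD8 (0.92), and Tsc2, an upstream inhibitor, higher than in CD8 (0.51). Myc was higher in CD8 than in γδ (0.86). Of the mitochondrial ribosomal proteins 1 was higher and 9 lower in DN than in CD4 (Mrps6 -1.04, Mrpl42 -0.75 and Mrpl14 -0.36 with the smallest p), 2 higher and 1 lower than in CD8, and 0 and 1 than in γδ, with medians of -0.09, -0.08 and -0.06. A series block gave 3 higher and 19 lower, 4 and 11, and 0 and 5. The shares of all genes against CD4 and CD8 are those just given. Against γδ they were 0.372% higher and 0.596% lower, and 3.04% and 3.22% with the series block.

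Between the array series, where 21.9% of all genes were higher in replicate 1 and 18.9% lower, 6 of the 20 translation factors were higher and 6 lower, with Tpt1 (-1.94) and Eif3f (-1.49) low and Eef2 (0.48) high. Of the biogenesis genes 3 were higher and 13 lower, among them Rrp9 (-0.79), Ubtf (0.42) and Sbds (0.37). Of the mTORC1 and Myc list 6 were higher and 1 lower, and of the mitochondrial ribosomal proteins 20 and 24. Fau was higher in replicate 1 by 0.49.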

How the data were processed

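RNA of 4 sorted T cell fractions was measured on 12 arrays. The deposited scanner files give, per the file headers, a median Cy5 intensity for every spot, with no background correction or normalization. The deposited value table holds a linear intensity scaled by the authors to about the same median on each array and left empty where a spot was not above background, as its values show; how it was made is not given in the sources used here. Spot medians were corrected with normexp (offset 50; limma 3.58.1 in R 4.3.3), taken to log2 and quantile normalised. Probes marked by the scanner software (25) were left out. Probes listed in the value table on all 3 arrays of a fraction were kept, and the brightest per symbol gave 16942 genes. limma's lmFit and eBayes fitted the 4 fraction means over 12 arrays, two-sided, with Benjamini-Hochberg adjustment over all genes, called at adjusted p under 0.05. The fits were tested on simulated data. Array number limits the precision.

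Members, lists and tests were chosen with earlier results of these data known. Named were Rpl39 and Rpl39l, all called members of a comparison or the 6 highest and 6 lowest, the 3 highest and 3 lowest where none was called, the 10 smallest F-test p-values, members with a role of their own, paralogs, and up to 3 called genes per list. The lists hold translation factors, ribosome biogenesis, mTORC1 and Myc, mitochondrial ribosomal proteins, ribosomal proteins with other symbols and markers (T, B, plasma, epithelial, macrophage and dendritic, naive T, respiratory chain). Alternatives were the scaling, the background correction, the value table, blocks for replicate number and array series, and left-out libraries. All 67 members matched RefSeq by Entrez ID. Same-numbered libraries deviated together in 18 of 18 pairs (correlation over genes 0.10 to 0.74). Such libraries also share an array series, and no differently numbered pairs were set beside them. The correlations therefore cannot show that the numbers pair the libraries. The block for the replicate number assumes such pairs, and the labels do not say what a number shares. Figures were drawn with Python 3.11.15 and matplotlib 3.10.9.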

Additional observations from a re-analysis of the deposited data

Results flagged for a closer look

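The difference DN minus CD4 was not the same in the 2 array series for 16 members, by the interaction of the comparison with the series in limma (called at an adjusted p under 0.05). Such an interaction was called in 11.1% of all genes. Its spread rests on replicates 2 and 3 alone, since replicate 1 has 1 library per fraction. The difference in replicate 1 minus that in replicates 2 and 3 was 1.38 for Rps15, 1.04 for Rpl26, 0.985 for Rpl11, 0.726 for Rpl7a, 0.718 for Rpl34, 0.646 for Rps29, 0.600 for Rpl13a, 0.535 for Rps19bp1, 0.366 for Rpl30, 0.319 for Rpl29, 0.312 for Rps4l and 0.278 for Rpl24. It was -0.515 for Rpl17, -0.460 for Rps23, -0.358 for Rps24 and -0.270 for Rpl32.

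The DN minus CD4 difference of Rps15 was 0.49 in replicate 1 and -0.89 in replicates 2 and 3, that of Rpl11 0.18 and -0.80, and that of Rpl34 0.35 and -0.37. Rpl30, one of the members lower in DN, was below 0 in both, at -0.26 and -0.63, as were Rpl24 (-0.16 and -0.43) and Rpl17 (-0.85 and -0.33). Rpl39, Rpl31 and Rps26 are not among the 16, which concern DN minus CD4. In DN minus CD8, Rpl39 was at 0.04 in replicate 1 and -1.23 in replicates 2 and 3. Rpl31 was at -0.06 and -1.11 there, and Rps26 at -0.14 and -0.42. In DN minus γδ the values were -1.08 and -0.72 for Rpl39, -1.47 and -0.16 for Rpl31, and -0.35 and -0.42 for Rps26. Replicate 1 of CD8 and of γδ are the 2 libraries that go against their labels.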

How the results depend on the processing

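The counts of ribosomal protein genes called depended on 2 libraries, as did the shares of all genes given above. As labelled they were 1 (DN vs CD4), 0 (DN vs CD8), 0 (DN vs γδ), 0 (CD4 vs CD8), 0 (CD4 vs γδ), 0 (CD8 vs γδ) and 0 (F test). In the same order they were 10, 16, 5, 4, 9, 7 and 18 without CD8 1 and γδ 1, and 31, 33, 9, 19, 26, 26 and 38 after adding a series block. With replicates 2 and 3 only they were 35, 41, 12, 25, 35, 34 and 47, given without a share of all genes. With all libraries, median scaling and the value table gave 0 for DN vs CD4, beside 1.97% and 1.74% of all genes. A series block gave 1 for the F test, beside 4.74% of all genes. With the replicate number as a block the counts with all libraries were 1 for DN vs CD4 (beside 5.29% of all genes) and 0 for the others. Without CD8 1 and γδ 1 they were 28, 31, 9, 16, 24, 21 and 37. Rpl39, not called in any DN comparison as labelled, passed in all 3 in these settings: without the 2 libraries (-0.91, -1.31 and -0.79), with the series block as well (-0.91, -1.21 and -0.70) and with replicates 2 and 3 only (-0.95, -1.23 and -0.72).

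Leaving out 1 library as labelled gave 0 to 4, 0 to 9, 0 to 2, 0 to 1, 0 to 3, 0 to 0 and 0 to 6 calls, and 21 to 30 between the array series. The highest counts came without CD8 1, or without γδ 1 for CD4 vs CD8 and CD4 vs γδ (CD8 vs γδ had 0 throughout). Rpl39 then lay between -1.02 and -0.83 against CD4, -1.31 and -0.55 against CD8, and -0.89 and -0.76 against γδ. Without CD8 1 and γδ 1, leaving out a further library gave 8 to 19, 9 to 26, 0 to 6, 1 to 7, 4 to 19, 4 to 15 and 11 to 25 calls, the highest without DN 1 or CD4 1 and the lowest for the DN comparisons without DN 2 or CD8 2 (for DN vs γδ also without γδ 2 or γδ 3; for DN vs CD4 also without CD4 3 or CD8 3), with Rpl39 at -1.02 to -0.83, -1.36 to -1.23 and -0.85 to -0.72. These settings without the 2 libraries were added after seeing the data. Counts with a library left out are given without a share of all genes. Without the 2 libraries, median scaling gave 21, 29, 1, 2 and 11 calls for the 3 DN comparisons, CD4 vs CD8 and CD8 vs γδ, and 29 in the F test. Of all genes 9.63%, 10.7%, 0.437%, 4.07% and 5.55% were called in the same comparisons, the F test aside. The value table gave 4 (DN vs CD4), 0 (DN vs γδ), 1 (CD4 vs CD8), 3 (CD4 vs γδ), 2 (CD8 vs γδ) and 8 (F test). Of all genes 7.45%, 0.0885%, 3.09%, 5.77% and 4.52% were called there, again without the F test. On the value table Rpl39 against γδ was at -0.76, no longer called. The cause of these changes was not tested. The alternative on scan gains was not run, since each file holds 1 value per spot. Signal over background limits the 8 dim members.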
